A study of Mus musculus with 6 samples.

Results

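The genes described here encode cytosolic ribosomal proteins, the protein components of the ribosomes that translate nuclear-encoded mRNAs. They were chosen by name from a list of 50 symbols, 29 for the large subunit and 21 for the small subunit. Of these, 49 were found among the 21448 genes of the table, 28 for the large and 21 for the small subunit, and Rpl24 matched none by symbol. All 49 passed the filter on low values, as did 10533 genes in all.

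RNA was measured in primary lymphoma B cells of the E mu-Myc transgenic strain. In it the immunoglobulin heavy chain enhancer drives Myc, so cells of both groups overexpress Myc. The genotypes were wild type (3 libraries) and PRDM15 KO (3 libraries), and all cells were grown with IL7. By protocol, cells received OHT (4-hydroxytamoxifen) at 50 nM to delete Prdm15, or ethanol as the control, for 24 hours, and were collected 3 days later; that the libraries labelled knockout are those that received OHT is inferred, so OHT itself and the deletion cannot be told apart. The sources used here do not give the recombinase, the age of the mice, or whether libraries with equal replicate numbers came from 1 mouse.

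Ribosomal proteins assemble with ribosomal RNA in the nucleolus, and the small and large subunits join at the start of translation. Many ribosomal protein mRNAs begin with a cytosine followed by an unbroken run of pyrimidines, the 5' terminal oligopyrimidine (TOP) tract, through which mTOR signalling acts on their translation. Myc is known to raise the transcription of ribosomal protein genes, and Eµ-Myc lymphomas are known to depend on high protein synthesis.

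RefSeq promoter sequences (GRCm38.p6) were matched by symbol to 40 of the 50 genes. At the annotated start site, 9 of the 40 (22.5%) had a C followed by at least 4 bases that were C or T, against 3.01% of 27025 genes. These 9 are shown because they had this tract at the annotated start. Each sequence runs from 30 bases before the start through the first 20 transcribed bases, in the gene's own direction. The pyrimidine tract is in capitals. The places are chr9:120571487-120571536 (+) for Rpl14, chr14:18270967-18271016 (-) for Rpl15, chr7:4792935-4792984 (+) for Rpl28, chr2:39005112-39005161 (-) for Rpl35, chr11:114668550-114668599 (+) for Rpl38, chr7:141447621-141447670 (+) for Rplp2, chr17:33955646-33955695 (-) for Rps18, chr2:180257349-180257398 (+) for Rps21 and chr4:86857348-86857397 (-) for Rps6.
Rpl14: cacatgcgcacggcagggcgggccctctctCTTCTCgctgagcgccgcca
Rpl15: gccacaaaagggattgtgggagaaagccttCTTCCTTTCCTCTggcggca
Rpl28: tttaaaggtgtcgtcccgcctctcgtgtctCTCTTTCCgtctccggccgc
Rpl35: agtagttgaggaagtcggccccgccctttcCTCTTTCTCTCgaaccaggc
Rpl38: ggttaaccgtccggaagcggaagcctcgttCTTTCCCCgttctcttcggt
Rplp2: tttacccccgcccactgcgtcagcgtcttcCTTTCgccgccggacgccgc
Rps18: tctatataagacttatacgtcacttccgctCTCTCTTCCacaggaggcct
Rps21: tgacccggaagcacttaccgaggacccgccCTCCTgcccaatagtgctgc
Rps6: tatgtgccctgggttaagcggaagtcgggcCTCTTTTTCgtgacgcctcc

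In the whole window of 300 bases (250 before the start and 50 after), searched on both strands, the letters CCGGAAG, a core bound by ETS family factors, were present in 17 of the 40 genes (42.5%, against 9.93% of all genes). They can be seen upstream of the tract in Rpl38. The letters CTCTTTC were present in 13 of the 40 (32.5%, against 9.28%) and can overlap the tract, as in Rpl28 and Rpl35. The letters CACGTG, the E-box to which Myc and Max bind, were present in 5 of the 40 (12.5%, against 8.09%), namely Rpl14, Rpl19, Rpl23, Rpl34 and Rps19. A match is a description of these letters and not of binding.

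Libraries held 28852951 to 47255421 reads assigned to genes. Values below are reads divided by an effective library size and are on the scale of CPM; they are not divided by transcript length, so levels are not compared between genes. Ribosomal protein genes have many near-identical pseudogene copies that can share their reads, so single values are uncertain to that extent. Where 3 values of a group are given, they stand in the order of replicates 1, 2 and 3, and p-values of single genes are from an exact two-sided permutation test over the 6 libraries, which cannot go below 0.1, unless another test is named. Prdm15 itself was at 29.2, 47.3 and 41.3 CPM in the libraries labelled wild type and at 40.2, 40.9 and 39.2 CPM in those labelled knockout (log2 change 0.06, exact two-sided permutation p = 1). Reads summed over a gene cannot tell a deletion of some of its exons, so the labels were not checked by this value and every direction below depends on them. All 10 B cell markers examined were detected, with Cd79a, Cd79b and Pax5 at 86.3 CPM or more in every library and Ms4a1 at 0.50 to 6.04 CPM. Others of the list differed between libraries. The surrogate light chain genes Vpreb1 and Igll1 were lowest in replicate 1 of each group: Vpreb1 was at 55.8, 268 and 269 CPM in the wild type libraries and at 30.8, 247 and 223 CPM in those labelled knockout, and Igll1 at 226, 445 and 318 CPM against 92.2, 499 and 276 CPM. Cd22, an inhibitory B cell receptor, was at 98.7, 125 and 56.2 CPM against 62.7, 39.3 and 24.6 CPM, lower in each pair (log2 change -1.15, adjusted p with the pairs 0.0713 by limma, 0.0883 by edgeR and 4.58e-07 by DESeq2). The T cell markers summed to 18.7 to 84.2 CPM, most of it Lck at 14.2 to 78.0 CPM, with Cd3e at 0.53 CPM or less, and the summed erythroid and stromal markers did not exceed 3.31 CPM. Macrophage and other myeloid markers summed to 239, 301 and 242 CPM in the wild type libraries and to 225, 2417 and 1323 CPM in those labelled knockout; 15 of the 20 passed the filter, and Elane and S100a9 were at 0 in 4 and 3 libraries. Ctss made up 184 and 190 CPM of the sums in the replicate 1 libraries, and the median difference of the 15 tested markers was -0.54 in pair 1, 2.58 in pair 2 and 2.04 in pair 3 (log2). In bulk samples, a changed share of cells and a changed amount of RNA per cell cannot be told apart.

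Cytosolic ribosomal protein mRNAs were slightly lower in the libraries labelled knockout. All 49 had a mean log2 change below 0, as did 57.0% of all tested genes. The median change was -0.22 (-14.2%), between -0.34 for Rpl38 and -0.05 for Rplp1, beside a median of -0.03 over all tested genes. Small subunit genes had a median of -0.24 and large subunit genes one of -0.20. Without wild type replicate 1 the median was -0.071, beside -0.05 for all genes, and without wild type replicate 3 it was -0.33. The large subunit's median was -0.13 without labelled knockout replicate 3, and with quantile normalization the median of the set was -0.12.

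No single gene of the set passed limma's test with Benjamini-Hochberg adjustment over all tested genes at 0.05, in which 0.00949% of all genes did. None had an unadjusted p under 0.05 there, as 4.06% of all genes did. Without the pairs, edgeR called 0 of the 49 (0.0% of all genes), with 1 at an unadjusted p under 0.05 (5.25% of all genes). DESeq2 without the pairs also called 0 (1.04% of all genes), with 0 at an unadjusted p under 0.05 (7.75% of all genes). For 25 of the 49 (74.0% of all genes), 19 in the large and 6 in the small subunit, the change was smaller than the pooled SD of the log2 values within groups.

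By replicate number the direction was the same in nearly all genes. Of the 49, 47 were lower in the labelled knockout library than in the wild type library of the same number in all 3 pairs, against 29.9% of all tested genes. The exceptions were Rpl27 and Rplp1, both in pair 3. Medians over the set were -0.38, -0.18 and -0.10 in pairs 1, 2 and 3, against -0.05, -0.00 and -0.04 over all tested genes. The small subunit had medians of -0.39, -0.20 and -0.11, and the large subunit had medians of -0.35, -0.17 and -0.09. Without pair 1 the median of the paired fit was -0.14. In each of the 47 the difference was largest in pair 1 (13.8% of all genes were lower in all pairs with the largest difference in pair 1). The size of that lead depended on the scaling. With quantile normalization the set's medians in pairs 1, 2 and 3 were -0.17, -0.15 and -0.04, so pairs 1 and 2 were nearly equal. With equal scaling to total reads they were -0.28, -0.17 and -0.05.

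With the replicate number as a block, limma called none of the 49 (0.873% of all genes), with adjusted p from 0.133 for Rpl10a to 0.689 for Rplp1. In that paired fit 36 had an unadjusted p under 0.05 and a lower value, 17 in the large and 19 in the small subunit, against 13.6% of all genes. EdgeR with the pairs also called none (0.418% of all genes), with 38 lower at an unadjusted p under 0.05 (13.3% of all genes). DESeq2 with the pairs called 16, all lower, where it called 3.99% of all genes lower. These were Rpl3, Rpl5, Rpl10a, Rpl13, Rpl28, Rpl32, Rpl37 and Rpl38 in the large subunit and Rps2, Rps6, Rps7, Rps14, Rps15, Rps18, Rps19 and Rps28 in the small subunit.

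**Figure D1:**
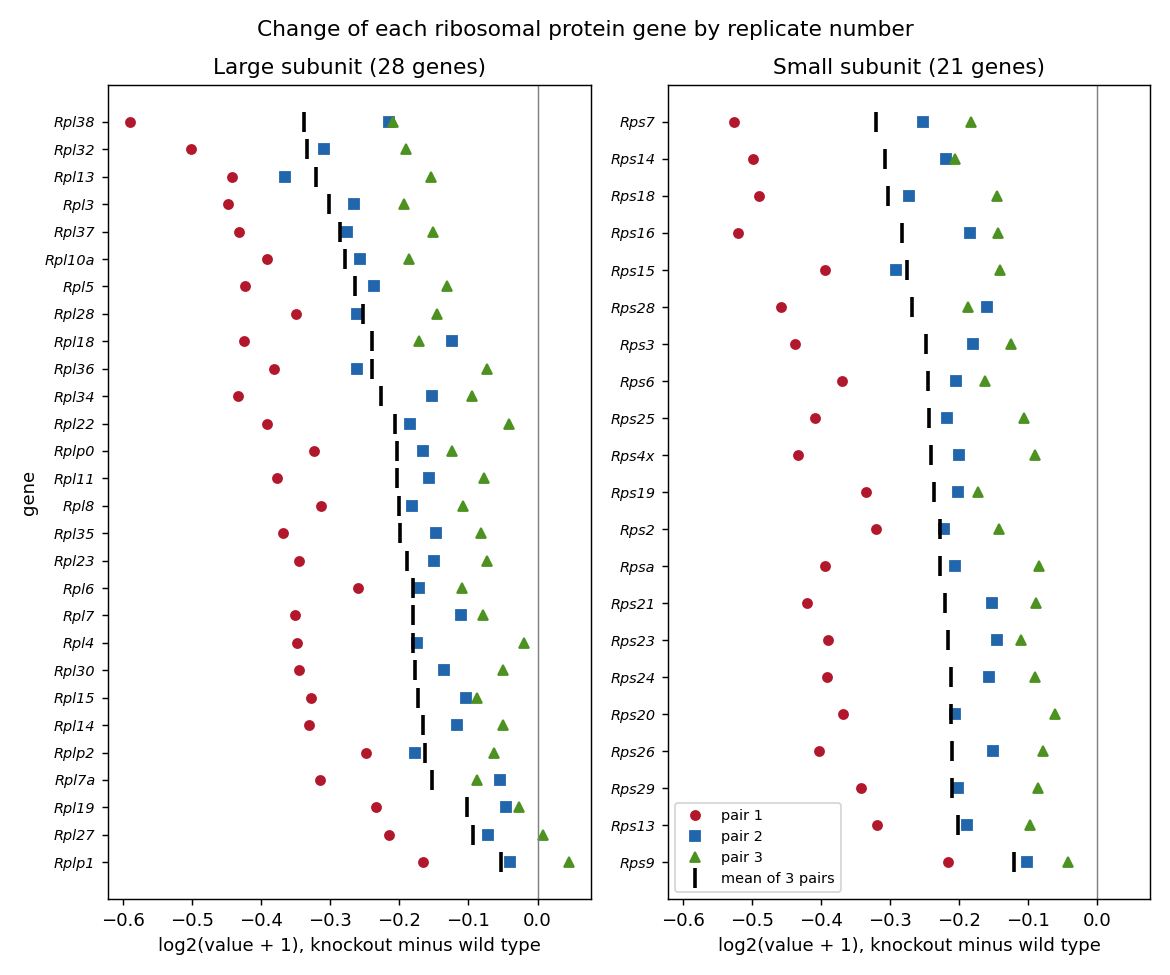
Difference in log2(value + 1) between the library labelled knockout and the wild type library of the same replicate number (horizontal axis), for each of 28 large and 21 small subunit genes (vertical axis), with coloured symbols for the 3 pairs and black bars for their mean. Pair 1 lies farthest to the left in every gene, and only Rpl27 and Rplp1 lie above 0, in pair 3.

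In the large subunit, Rpl3, a core protein near the peptidyl transferase centre, had the smallest p. It was at 2929, 2516 and 2211 CPM in the wild type libraries and at 2146, 2093 and 1933 CPM in those labelled knockout. Every wild type library was above every labelled knockout library, which held for 3 of the 49 genes (6.29% of all tested genes), the others being Rps19 and Rps23. That count is near the share of all genes, so it is no result about the set. The log2 change of Rpl3 was -0.30 (SE 0.13, limma p = 0.0622, exact two-sided permutation p = 0.1, the smallest that 3 against 3 libraries allow). DESeq2 with the pairs gave it an adjusted p of 0.00213 and limma with the pairs one of 0.150.

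Rpl38, whose loss in mice is known for altered translation of Hox mRNAs, had the largest change. It was at 674, 460.4 and 433 CPM in the wild type libraries and at 447, 396 and 374 CPM in those labelled knockout. The labelled knockout library of replicate 1 lay between wild type replicates 2 and 3, so the groups overlapped. Its difference was -0.59 in pair 1 and -0.22 and -0.21 in pairs 2 and 3, a mean of -0.34 (exact permutation p = 0.2). Rpl32, another large subunit protein, was at 2029, 1485 and 1395 CPM in wild type libraries and at 1432, 1198 and 1222 CPM in labelled knockout libraries (log2 change -0.33, exact permutation p = 0.2). Rpl28 was at 1037, 875 and 800.4 CPM against 813, 730.1 and 723 CPM (-0.25, exact permutation p = 0.2). Both overlapped between groups only through labelled knockout replicate 1, which was above wild type replicate 3.

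Rpl5 and Rpl11 bind 5S ribosomal RNA and, when not built into ribosomes, inhibit MDM2 and so stabilise p53. Rpl5 was at 1875, 1458 and 1344 CPM in wild type libraries and at 1398, 1237 and 1226 CPM in those labelled knockout, a log2 change of -0.26 (exact permutation p = 0.2, adjusted p by DESeq2 with the pairs 0.0234). Rpl11 was at 1386, 996 and 916 CPM against 1068, 893 and 869 CPM, a change of -0.20 (exact permutation p = 0.5). In both genes the labelled knockout library was lower in each pair while the groups overlapped.

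Rplp0, Rplp1 and Rplp2 form the stalk that recruits translation factors. Rplp0 was at 4694, 3406 and 3146 CPM in wild type libraries and at 3752, 3037 and 2886 CPM in labelled knockout libraries (-0.20). Rplp2 was at 1160.4, 1011 and 852 CPM against 977, 894 and 816 CPM (-0.16). Rplp1 stood apart as the member with the smallest difference, at 1694, 1274 and 1110.4 CPM against 1510.2, 1239 and 1146 CPM. Its difference was -0.17, -0.04 and 0.05 in pairs 1, 2 and 3 (mean -0.05, exact permutation p = 0.8). Its sign turned with equal scaling to total reads, with quantile normalization and without wild type replicate 1, so no direction is given for it.

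Rpl19, used as a reference gene in many tissues, was at 1715, 1248 and 1203 CPM in wild type libraries and at 1459, 1209.6 and 1181 CPM in those labelled knockout. Its change of -0.10 (exact permutation p = 0.6) was 0.059 without wild type replicate 1 and 0.049 with quantile normalization. Rpl4, which lines the exit tunnel, was at 4074, 3204 and 2745 CPM against 3201, 2839 and 2709 CPM (-0.18, exact permutation p = 0.4). Its labelled knockout and wild type libraries of replicate 3 were nearly equal, while those of replicate 1 were far apart.

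Rpl22, a protein needed for T cell development, was at 796, 582 and 511 CPM in wild type libraries and at 606, 512 and 497 CPM in those labelled knockout. Its differences were -0.39, -0.18 and -0.04 in pairs 1, 2 and 3 (mean -0.21, exact permutation p = 0.6). Its paralogue Rpl22l1, which can take its place in the ribosome, was at 183, 156 and 146 CPM against 124, 123 and 118 CPM. The groups of Rpl22l1 did not overlap, and its differences of -0.55, -0.33 and -0.31 were more alike across pairs (mean -0.40, SE 0.10, exact permutation p = 0.1, limma adjusted p 0.886). With the pairs its adjusted p was 0.0799 by limma, 0.0971 by edgeR and 0.000305 by DESeq2. The quotient of Rpl22l1 over Rpl22 was 0.230, 0.268 and 0.286 in the wild type libraries and 0.205, 0.241 and 0.237 in those labelled knockout, lower in each pair with overlapping groups.

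**Figure D2:**
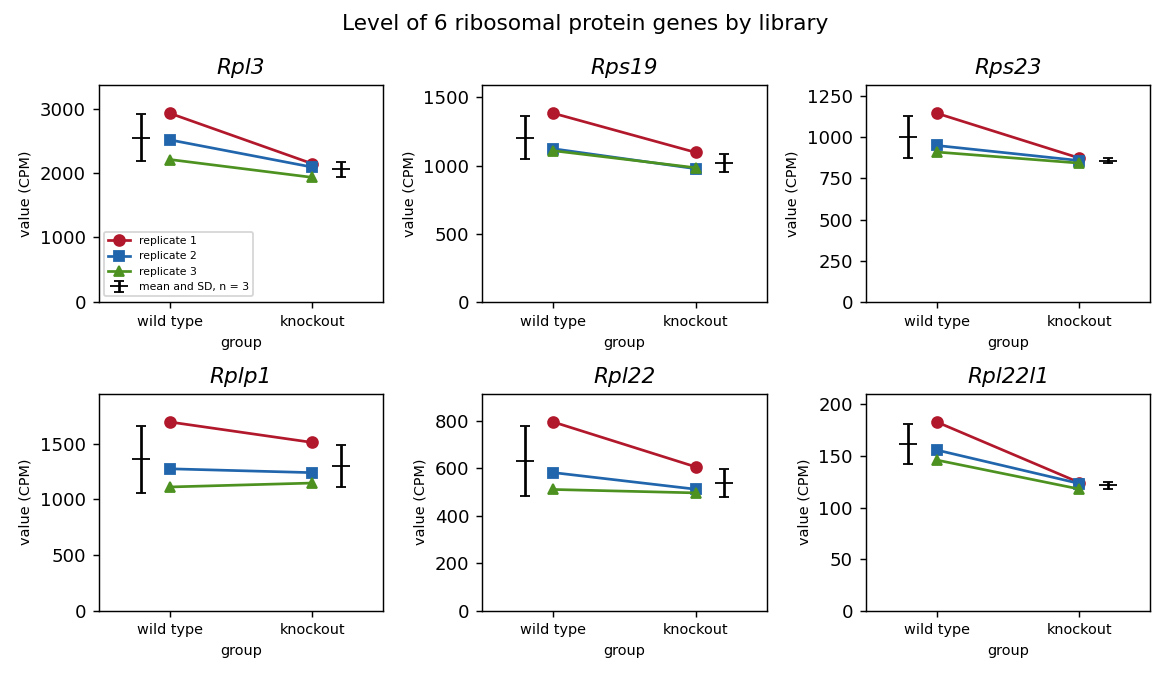
Level in CPM (vertical axes from 0) of 6 genes in each library, by group (horizontal axis), each coloured line linking the 2 libraries that share a replicate number; black marks give the mean with its SD (n = 3). Wild type libraries lie above all those labelled knockout in Rpl3, Rps19, Rps23 and Rpl22l1, while in Rplp1 and Rpl22 the groups overlap.

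In the small subunit, Rps19, the gene most often mutated in Diamond-Blackfan anaemia, was at 1384, 1123 and 1109 CPM in the wild type libraries and at 1097, 977 and 984 CPM in those labelled knockout. The groups did not overlap, and the log2 change was -0.24 (SE 0.12, limma p = 0.0948, exact permutation p = 0.1, DESeq2 with the pairs adjusted p = 0.00843). Rps23, a protein of the decoding centre, was at 1145, 949.5 and 909.8 CPM against 873, 858 and 843 CPM. Its groups did not overlap either, and its labelled knockout libraries were the most alike of all 49 genes, with an SD of 0.03 on the log2 scale. Its change was -0.22 (SE 0.11, limma p = 0.0963, exact permutation p = 0.1), and no paired test called it (DESeq2 adjusted p = 0.106).

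Rps7, which also binds MDM2, had the largest change of the small subunit. It was at 1305, 902 and 859 CPM in wild type libraries and at 906, 757 and 757 CPM in those labelled knockout (-0.32, exact permutation p = 0.3). Labelled knockout replicate 1 was just above wild type replicate 2, so the groups overlapped. Rps28 was at 611, 459.5 and 437 CPM against 445, 411 and 384 CPM (-0.27, exact permutation p = 0.2). Rps18 was at 1732, 1267 and 1129 CPM against 1233, 1048 and 1020.3 CPM (-0.30, exact permutation p = 0.2). Both were lower in each pair and overlapped through labelled knockout replicate 1.

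Rps6, the substrate of S6 kinase and a common readout of mTOR activity as a phosphoprotein, was at 1045, 801 and 748 CPM in wild type libraries and at 808, 695 and 668 CPM in labelled knockout libraries (-0.25, exact permutation p = 0.3). Rpsa, which also serves as a laminin receptor, was at 4312, 3384 and 2811 CPM against 3282, 2932 and 2653 CPM (-0.23). Rps2 was at 2888, 2430.4 and 2129.6 CPM against 2312, 2083 and 1929.6 CPM (-0.23). These 3 were lower in each pair, and in each the groups overlapped. The change of Rps2 was 0.0079 with quantile normalization.

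Rps26, which sits at the mRNA exit channel, was at 1156, 835 and 762 CPM in wild type libraries and at 874, 752 and 722 CPM in those labelled knockout (-0.21). Rps21 was at 786, 571 and 483 CPM against 587, 514 and 455 CPM (-0.22, exact permutation p = 0.5). Rps9 was at 1912, 1741 and 1608 CPM against 1645, 1622 and 1560.4 CPM, a change of -0.12 that was 0.054 with quantile normalization. Rps9 varied least of all 49 among the wild type libraries, with an SD of 0.13 on the log2 scale.

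A larger contrast lay between libraries of the same group. In 48 of the 49 genes wild type replicate 1 was the highest of all 6 libraries (19.7% of all tested genes), and in 42 labelled knockout replicate 3 was the lowest (15.6%). Wild type replicate 1 exceeded the mean of the other wild type libraries by a median of 0.48 on the log2 scale, against -0.09 over all tested genes. Labelled knockout replicate 1 exceeded the mean of its group's other libraries by a median of 0.23, against -0.12 over all genes. Both gaps were at least as large as the size of the median difference between the groups, -0.22.

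Variation among wild type libraries was also wider. The median SD of the log2 values was 0.29 in the wild type group and 0.14 in the labelled knockout group, while over all tested genes it was 0.21 and 0.20. The replicate 1 libraries, highest for ribosomal protein genes in both groups, were also those with the lowest Vpreb1 and Igll1. In pair 1, with the largest ribosomal protein difference, the median difference of 15 myeloid markers was -0.54. Single markers went both ways there, as Itgax was at -0.71 and Fcgr3 at 0.51, and the marker sums were 239 and 225 CPM. In pairs 2 and 3, with smaller ribosomal protein differences, the marker medians were 2.58 and 2.04. DESeq2 with the pairs called 2 of the 15 myeloid markers higher (3.02% of all genes) and none lower, and limma with the pairs called none. The part of these B cell and myeloid markers in the ribosomal protein differences was not tested.

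Rpl34 and Rps14 departed from the common profile in both groups. Rpl34 was at 1072, 513 and 483 CPM in wild type libraries and at 794, 461 and 452 CPM in those labelled knockout. Replicate 1 of each group was thus far above the others, by 1.11 and 0.80 on the log2 scale, the largest such gaps of all 49 genes. The change of Rpl34 between groups was -0.23 (SE 0.37, exact permutation p = 0.5), and 0.14 without wild type replicate 1. Rps14, whose loss from the 5q region is known in a myelodysplastic syndrome in humans, was at 1209, 1317 and 805 CPM against 855, 1131 and 697 CPM. It was the single gene with replicate 2 highest in both groups, and replicate 2 exceeded replicate 3 by 0.71 and 0.70, where the medians of the set were 0.14 and 0.06. Its difference was nonetheless -0.50, -0.22 and -0.21 in pairs 1, 2 and 3 (mean -0.31, SE 0.25, exact permutation p = 0.3, DESeq2 with the pairs adjusted p = 0.00680).

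**Figure D3:**
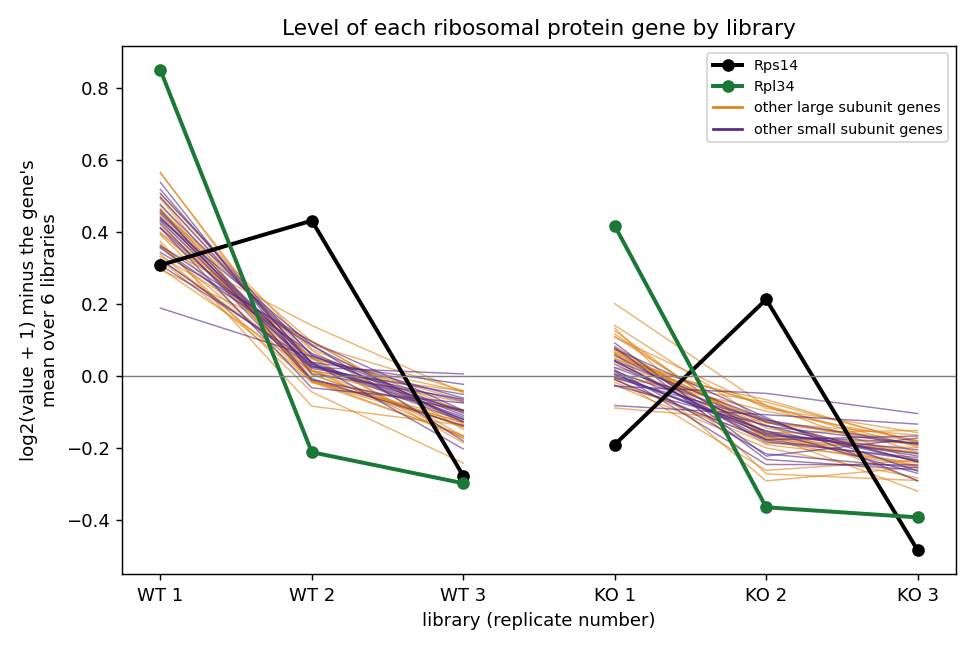
Level of each ribosomal protein gene in each library as log2(value + 1) minus the gene's mean over the 6 libraries (vertical axis), by group and replicate number (horizontal axis; WT, wild type; KO, labelled knockout), with 1 line per gene and group. Replicate 1 of each group is the highest in all genes but Rps14, Rpl34 spans the widest range, and Rps14 peaks in replicate 2 of both groups.

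As a share of all reads assigned to genes, the 49 genes took 7.73%, 6.04% and 5.45% in the wild type libraries and 6.42%, 5.37% and 5.25% in the labelled knockout libraries. Wilson 95% intervals, which cover counting error only, were as narrow as 7.72% to 7.73% in the first and 5.24% to 5.25% in the last. The group means were 6.41% ± 1.18 and 5.68% ± 0.644 (SD, n = 3), so the difference was smaller than the SD of the wild type group. In pairs 1, 2 and 3 the share differed by -16.9%, -11.0% and -3.74% of its wild type value. This share uses no scaling factor between libraries but is set by each library's total reads. On the effective library sizes, the summed values of the 49 genes differed by -22.6%, -11.9% and -6.98% in pairs 1, 2 and 3.

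The subunits kept nearly the same balance in all 6 libraries. The summed large subunit value over the summed small subunit value was 1.41, 1.36 and 1.39 in wild type libraries and 1.46, 1.38 and 1.40 in the labelled knockout libraries. The quotient was higher in the labelled knockout library of each pair, by factors of 1.03, 1.02 and 1.01. Group values were 1.39 ± 0.026 and 1.42 ± 0.037 (SD, n = 3), and the groups overlapped; the difference between the means was close to the wild type SD and below the labelled knockout SD.

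The 9 genes with the tract at their annotated start had a median log2 change of -0.22, from -0.34 for Rpl38 to -0.16 for Rplp2. The 30 matched genes without it at that position had a median of -0.23. The tract was sought only at the annotated start, and mRNAs of the 30 may begin with it at another base. This comparison therefore cannot separate genes with the tract from genes without it, and its part in the change was not tested.

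The remaining cytosolic ribosomal protein genes of the table, 17 of the large and 11 of the small subunit, were also lower. Of these 28, 27 were lower in all 3 pairs (29.9% of all genes), and their median changes were -0.25 for the large and -0.26 for the small subunit. No gene of the 28 passed limma with or without the pairs, and DESeq2 with the pairs called 16 of them lower (3.99% of all genes). Examples are Rps10 (log2 change -0.33), Fau, the precursor of a small subunit protein and a ubiquitin-like peptide (464 ± 85.4 to 368 ± 40.7 CPM, -0.32), Rpl26, a regulator of p53 translation (-0.31), and Rpl12 (-0.31). The 6 tested paralogues of ribosomal proteins had a median of -0.10. Of them, 2 were lower in each pair, near the 29.9% of all genes, so this count is no result about the paralogues. Rpl22l1 was the member of that list with the largest change, while Rps27l, a p53 target, was at -0.15, Rpl7l1 at -0.11 and Rpl36al at -0.10.

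Mitochondrial ribosomal protein genes, which serve the separate ribosomes of mitochondria, lay near 0. Of the 76 tested, 6 were lower and 11 higher in all 3 pairs (16.7% of all genes were higher), with a median of 0.02 and pair medians of -0.06, 0.12 and 0.00. None passed limma with or without the pairs, or DESeq2 with the pairs. Wild type replicate 1 was the highest wild type library in 65 of the 76, so that feature was shared with the cytosolic genes (48 of 49, where all genes had 30.6%). The difference between the lists was not tested. Dap3, a GTP-binding protein of the mitochondrial small subunit, was at 162, 142 and 142 CPM in wild type and at 124, 125 and 124 CPM in labelled knockout libraries, with no overlap (-0.25, limma paired adjusted p = 0.143). Mrps6 was at 0.29 and Mrpl37 at 0.20 on the log2 scale, in the opposite direction.

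**Figure D4:**
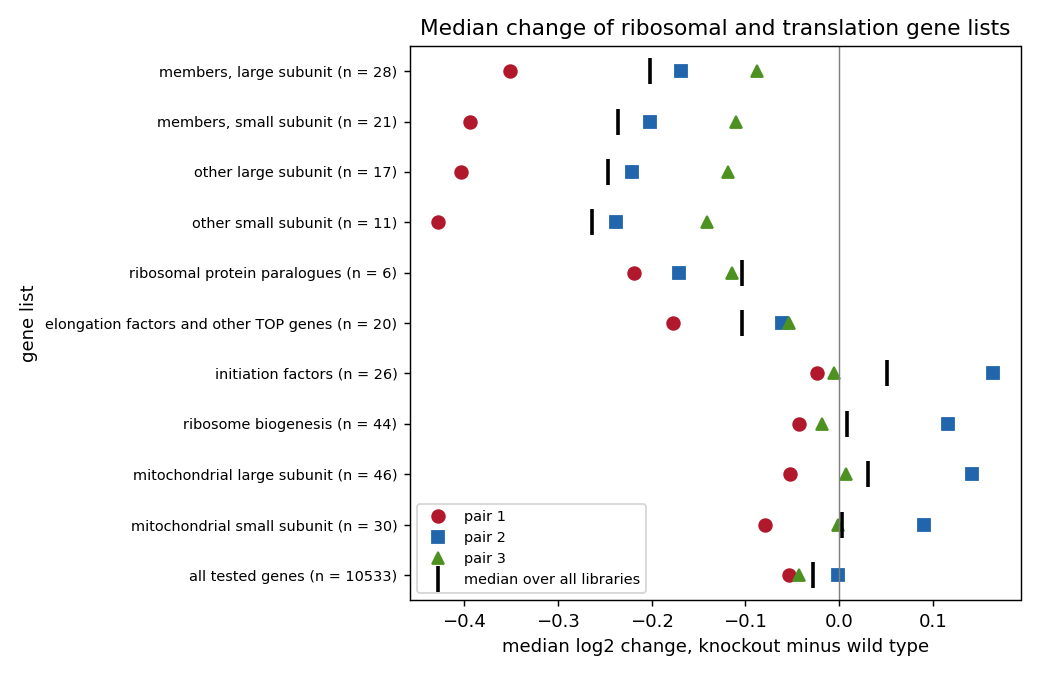
Median log2 change (horizontal axis, labelled knockout minus wild type) of each gene list (vertical axis, with the number of tested genes), with coloured symbols for the 3 pairs and black bars for the median over all libraries. Cytosolic ribosomal protein lists lie left of 0 in every pair, from -0.43 to -0.09, and mitochondrial, initiation factor and biogenesis lists lie on both sides of 0.

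Elongation factors and other genes known for TOP mRNAs, 20 in all, had a median of -0.10, with 11 lower and 1 higher in all pairs (29.9% and 16.7% of all genes). DESeq2 with the pairs called 2 of them lower (3.99% of all genes), and limma and edgeR with the pairs called neither. Rack1, a scaffold on the small subunit, went from 2466 ± 392 to 2061 ± 153 CPM (-0.25, paired adjusted p = 0.0187 by DESeq2, 0.184 by limma and 0.159 by edgeR), and Eef2, which moves the ribosome along the mRNA, from 5549 ± 689 to 4795 ± 437 CPM (-0.21, paired adjusted p = 0.0428 by DESeq2, 0.252 by limma and 0.158 by edgeR). Among these, 2 subunits of initiation factor 3, Eif3k (-0.16) and Eif3h (-0.17), were also lower.

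Translation initiation factors, 26 in all, had a median of 0.05, with 1 lower and 7 higher in all pairs (29.9% and 16.7% of all genes). Limma and DESeq2 with the pairs called none of them. Their pair medians were -0.02, 0.16 and -0.01. Eif5b, which joins the subunits, was at 0.20, and Eif5, Eif3a and Eif3b were at 0.13.

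Genes for ribosome assembly and ribosomal RNA synthesis, 44 in all, had a median of 0.01, with 7 lower and 16 higher in all pairs (29.9% and 16.7% of all genes). Limma called none with or without the pairs, and DESeq2 with the pairs called 5, all higher (3.02% of all genes were called higher). Ddx21, a nucleolar helicase, went from 717 ± 35.5 to 872 ± 69.1 CPM (0.28, paired adjusted p = 6.91e-06 by DESeq2, 0.115 by limma and 0.121 by edgeR). Pno1, needed for the last steps of small subunit maturation, went from 77.7 ± 4.80 to 99.6 ± 8.02 CPM (0.35, adjusted p = 0.000130 by DESeq2 and 0.0799 by limma, both with the pairs). Bysl (0.37, DESeq2 paired adjusted p = 0.00616) and Utp20 (0.20, 0.0103), which act in small subunit assembly, were also among the 5, with paired adjusted p of 0.121 and 0.155 by limma. Each was thus in the opposite direction to the 16 ribosomal protein genes that the same test called.

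Among 17 known regulators of ribosomal protein genes and of TOP mRNAs, 6 were lower and 1 was higher in all pairs, with a median of -0.05; as 29.9% of all genes were lower in all pairs, this is no result about the regulators. Myc was at 846, 684 and 618 CPM in the wild type libraries and at 727, 456 and 532 CPM in the labelled knockout libraries. It was lower in each pair, with differences of -0.22, -0.58 and -0.22, and the groups overlapped (mean -0.34, exact permutation p = 0.3, adjusted p with the pairs 0.0299 by DESeq2, 0.153 by limma and 0.163 by edgeR). The largest Myc difference was in pair 2 and the largest ribosomal protein difference in pair 1. The part of Myc in the ribosomal protein differences was not tested. Larp1, which binds the TOP tract, was at 0.11, Eif4ebp1, an inhibitor of cap-dependent initiation, at -0.15 and Tsc2, an inhibitor of mTOR, at -0.13. Of 9 host genes of small nucleolar RNAs, 3 were tested, with changes of -0.24 for Snhg12, -0.09 for Gas5 and -0.05 for Snhg3.

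**Figure D5:**
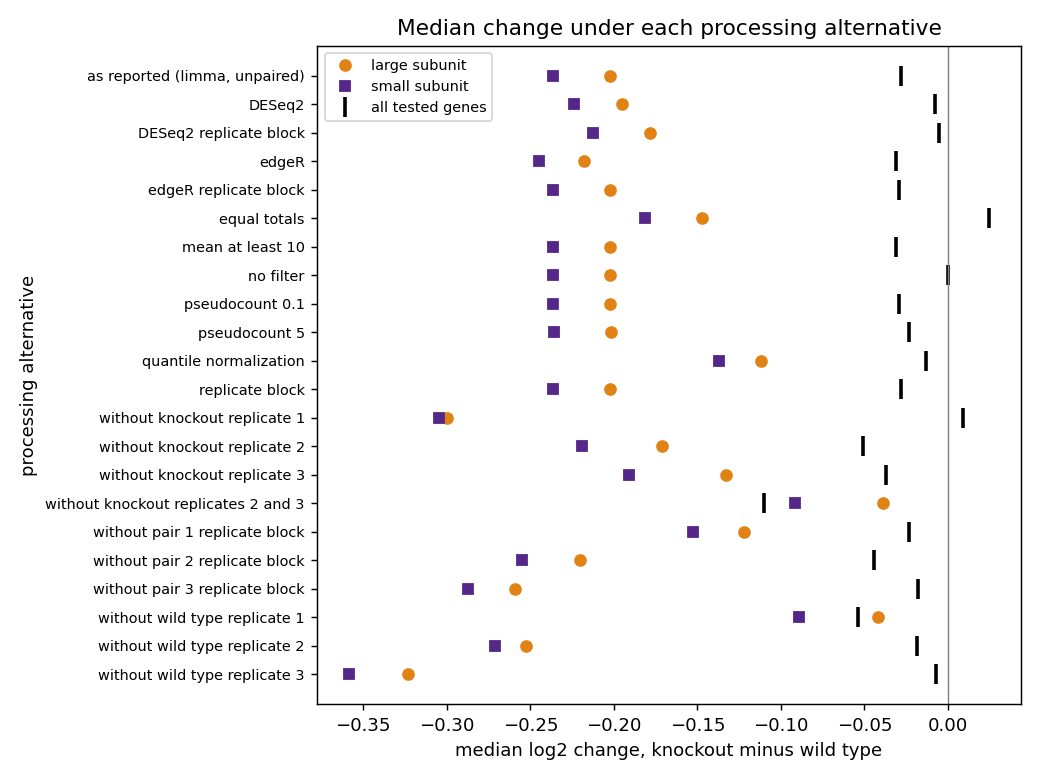
Median log2 change (horizontal axis, labelled knockout minus wild type) of large and small subunit genes under each processing alternative (vertical axis), with black bars for the median of all tested genes. All medians of both subunits lie below 0, and those without wild type replicate 1 or without labelled knockout replicates 2 and 3 lie nearest to the median of all genes or above it.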

How the data were processed

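RNA-seq libraries were directional, per the labels' protocols. CASAVA, STAR 2.4.2a, HTSeq, edgeR and the build mm9 appear in the submitters' processing notes without a role; the sources used here do not give the annotation or the strand setting. The deposited signal is named FPKM in its table, but in each library every value was a whole multiple of 1 step (100% whole within 0.01 reads). The values are thus read counts over an effective library size, which was 0.970 to 1.04 times the total and equal to the total times edgeR's TMM factor.

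Genes with a mean of at least 1 were tested with limma 3.58.1 on log2(value + 1), with a trended variance, unpaired, two-sided, with Benjamini-Hochberg adjustment over 10533 genes at a threshold of 0.05. Each log2 change is on this scale, labelled knockout minus wild type. The design assumed FPKM; limma was kept and edgeR 4.0.16 (quasi-likelihood) and DESeq2 1.42.0 were run on recovered reads as alternatives, in R 4.3.3. Scripts were tested on simulated data. Plots used Python 3.11.15 and matplotlib 3.10.9.

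Deviations from group means correlated at 0.73, 0.73 and 0.84 between libraries of equal number, so the numbers were taken to pair them; the labels do not say that they share a mouse. The design text calls them biological replicates. In the unpaired fits, p-values set the change against the spread between libraries within groups. In the paired fits, they set it against the spread of the differences between pairs. No 2 libraries agreed within counting noise. The members and lists were chosen with earlier results of these data known, so no list was tested. Of 336 entries in 17 lists, 14 matched no gene. Genes named were, per subunit, the 5 with the smallest and the 3 with the largest limma p, the 2 with the highest mean, 12 found of 13 chosen by role, and up to 4 per other list by p; other names were chosen after their values were seen. Protein sequences are not used here.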

Additional observations from a re-analysis of the deposited data

How the results depend on the processing

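Ribosomal protein genes have many near-identical processed pseudogenes, so single values depend on how shared reads were counted; 6 rows with pseudogene names were in the table, the highest, Rpl14-ps1, at a mean of 25.4 CPM. With 3 libraries a group, an exact permutation test cannot go below 0.1. The replicate block (pairing) cannot change limma's median in this balanced design, so that it stayed at -0.22 is no result. With the block limma's calls stayed at 0, while DESeq2 with the replicate block called 16 of the 49. Over all genes the block took the calls from 1 to 92 in limma, from 0 to 44 in edgeR and from 110 to 738 in DESeq2. Outside the set, DESeq2 with the block called the named genes Rpl22l1, Myc, Ddx21, Rack1, Eef2, Fau, Rpl26, Rpl12, Rps10, Pno1, Bysl, Utp20, Cd22 and Fcgr3. It called none of these without the block, and limma and edgeR called none of them in either fit.

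Leaving out 1 library gave medians of -0.33 to -0.071 for the set, -0.32 to -0.042 for the large and -0.36 to -0.089 for the small subunit, with 0 calls each time. Without wild type replicate 1, the set had its median of -0.071 and all genes had one of -0.05. Without labelled knockout replicates 2 and 3, medians were -0.073 for the set and -0.039 for the large subunit, where all genes had -0.11. The number lower in all 3 pairs was 43 with equal totals (20.03% of all genes) and 29 with quantile normalization (25.6% of all genes). Without pair 1, 2 or 3, chosen after seeing the data, 47, 47 and 49 were lower in both remaining pairs (39.4%, 43.0% and 35.2% of all genes). The medians of the set were -0.17 with equal totals and -0.12 with quantile normalization. The cause of these shifts was not tested.

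Of the 25 named members under 22 alternatives, 14 values changed sign. TMM scaling, limma's replicate block on all libraries and the other filters on low values leave each log2 change as it was, so these alternatives could turn no sign. Rplp1 was at 0.0022 with equal totals, 0.089 with quantile normalization, 0.0027 without pair 1 and with the replicate block, 0.17 without labelled knockout replicates 2 and 3, and -0.19 to 0.12 over fits without 1 library, above 0 without labelled knockout replicate 3 (0.032) and without wild type replicate 1. With quantile normalization Rpl19 was at 0.049, Rps9 at 0.054 and Rps2 at 0.0079. Without labelled knockout replicates 2 and 3 Rpl19 was at 0.0897, Rpl34 at 0.30 and Rplp0 at 0.023. Leaving out 1 library gave -0.20 to 0.059 for Rpl19 and -0.49 to 0.14 for Rpl34, above 0 only without wild type replicate 1. No alternative but DESeq2 with the replicate block called a named member (12).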
